A study of Mus musculus with 24 samples.

Results

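Kidney and liver of C57BL/6 mice given cisplatin alone were compared gene by gene. Cisplatin, a platinum drug that crosslinks DNA, was given by intraperitoneal injection (20 mg/kg), and both organs were taken 72 h later. The 6 libraries of this comparison, 3 of kidney and 3 of liver, are 6 of the 24 libraries in the series. Kidney columns are numbered 4 to 6 and liver columns 1 to 3, and values below follow in that order. Of 33272 genes in the table, 21570 had enough counts to be tested, and these are the genes described. Each organ had 2 reference arms with 3 libraries per organ. One was untreated mice of the same strain, for which the labels give no time or mock injection. The other received CBLB502, a protein made from bacterial flagellin that activates the receptor TLR5, at 0.2 mg/kg. Its tissue was also taken at 72 h, per the sample titles. The remaining arm, CBLB502 followed by cisplatin, entered the fit and is not described here. Whether each library of a group is another mouse is not stated, so the p-values rest on a spread among libraries that could be technical. Age, sex and whether a kidney and a liver came from the same mouse are not stated in the labels.

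Liver and kidney both clear drugs, and they do so with different cells. Hepatocytes make most plasma proteins, among them the acute-phase proteins that rise after injury, and carry out urea, bile acid and cytochrome P450 chemistry. The kidney filters plasma, and its proximal tubule takes up filtered solutes and, through organic cation and copper transporters, cisplatin. Proximal tubule injury limits the dose of the drug in patients. Cisplatin adducts activate p53, which induces the cell cycle inhibitor gene Cdkn1a and its own inhibitor Mdm2 in many cell types.

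Cisplatin libraries held 70.1 to 77.5 M counts (M, mega). Untreated libraries were 60.7 to 72.2% mitochondrial, against 2.57 to 10.3% under cisplatin and 6.73 to 14.2% after CBLB502. A further 19.8 to 21.9% of untreated counts and 0.871 to 3.46% of cisplatin counts were on 7 nuclear copies of mitochondrial genes. Together these left 2.82 to 10.1 M counts on other nuclear genes in untreated libraries, 64.0 to 74.5 M under cisplatin and 44.0 to 52.5 M after CBLB502. The drug and the kind of library cannot be told apart in a comparison with untreated mice, so the CBLB502 arm is given as a second reference. All 13 mitochondrially encoded protein genes were higher in liver in untreated mice, and 6 of these differences shrank under cisplatin. These changes were not called with the 12 libraries of both arms fitted alone, whereas 12 of the 13 genes had a called change without liver library 3 and kidney library 6. In each organ 1 cisplatin library stood far from the other two. Liver library 3 had 46805 CPM (counts per M of scaled library size) over 27 acute-phase genes, against 332742 and 237682 CPM in libraries 1 and 2. Kidney library 6 had 1550 CPM over 16 tubular injury genes, against 13655 and 12361 CPM in libraries 4 and 5. Both stayed in the main results, and counts without them are given.

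Under cisplatin the organs differed at 7530 genes, 34.9% of those tested (edgeR's quasi-likelihood test, Benjamini-Hochberg adjusted p under 0.05). Differences are log2 kidney minus liver, so negative values mean a higher level in liver, and are printed with their standard error after ±. Kidney was higher at 4209 genes (19.5%) and liver at 3321 (15.4%). In untreated mice 7311 genes (33.9%) differed, 3717 toward kidney and 3594 toward liver. After CBLB502 alone 6460 genes (29.9%) differed. The organ difference itself changed between untreated and cisplatin-treated mice at 3062 genes (14.2%), 1672 toward kidney (7.75%) and 1390 toward liver (6.44%). With CBLB502 as the reference it changed at 449 genes (2.08%), 269 toward kidney (1.25%) and 180 toward liver (0.834%). The 3 kidney and 3 liver values under cisplatin did not overlap at 8099 genes (37.5%).

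The count of changed differences depended on which libraries were fitted. The test shared its estimate of the spread over all 24 libraries. When the 12 libraries of both organs in the 2 arms compared were fitted alone, changes fell to 358 genes against untreated and 97 against CBLB502. That fit also redid the filter and the scaling, and the part of each was not tested. Organ differences under cisplatin then numbered 4653. Without liver library 3 and kidney library 6, an alternative chosen after seeing the data, changes rose to 4763 and 2981 genes.

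Genes were sorted by their calls in untreated and cisplatin-treated mice. A difference persisted at 3227 genes (15% of all tested), meaning that it was called in both arms in the same direction and its change was not called. The other classes needed a called change. The difference shrank at 1310 genes (6.07%), where it was called in untreated mice and smaller under cisplatin. It widened at 377 (1.75%), appeared at 1031 called under cisplatin alone (4.78%) and reversed at 259 called in opposite directions (1.2%). Persisted does not mean shown to be equal. At 774 persisted, 204 shrunk, 16 widened, 127 appeared and 27 reversed genes, at least 1 of the 4 groups had no count. There a fitted difference gives no size, so which arm had the smaller one is uncertain. With the 12 libraries fitted alone 110 genes shrank, 65 widened, 145 appeared and 38 reversed. Against CBLB502 the same sorting gave 4545 persisted (21.1%), 126 shrunk (0.584%), 118 widened (0.547%), 175 appeared (0.811%) and 30 reversed (0.139%). In each class the liver level had changed from untreated at more genes than the kidney level. Among genes whose difference appeared, 848 had a called change in liver and 411 in kidney. Among reversed differences these numbers were 236 and 127.

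**Figure D1:**
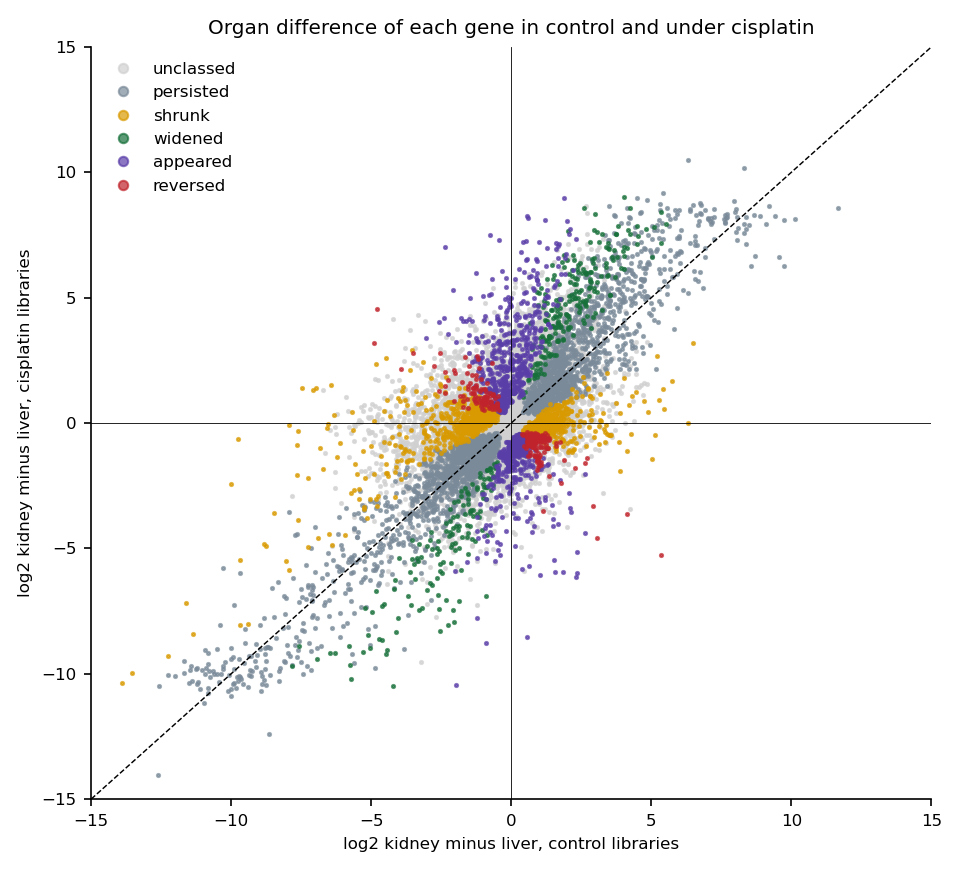
Each point is 1 of the 16552 tested genes with counts in all 4 groups, placed by its log2 kidney minus liver difference in untreated libraries (x) and under cisplatin (y), with equal values on the dashed line and colours for the classes. Persisted differences lie along the line at both ends of the scale, shrunk ones on the side of the line nearer to a y value of 0, and reversed ones at the upper left and lower right.

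Hepatocyte, tubule and collecting duct markers mostly kept their difference. All 15 hepatocyte markers were higher in liver under cisplatin, with a median log2 difference of -9.05 against 0.07 over all genes tested. All 16 proximal tubule, 9 thick limb and distal convoluted tubule and 10 collecting duct markers were higher in kidney, with medians of 8.13, 7.45 and 8.33. Genes without a count in 1 organ were 2 of the 16 and 2 of the 10, and with these at a lower bound the medians were 8.13 and 7.81. The difference persisted at 13 hepatocyte, 14 proximal tubule, 9 thick limb and distal convoluted tubule and 9 collecting duct markers. Without liver library 3 and kidney library 6, the called numbers were 13, 15, 9 and 8. Of 7 podocyte markers, 5 were higher in kidney and 3 persisted. They summed to 27.3, 37.0 and 78.6 CPM in kidney libraries 4 to 6, against 74.2 to 78.1 CPM in untreated kidney.

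Albumin, the main plasma protein, is encoded by Alb (ENSMUSG00000029368, chr5:90460897-90476602, coordinates as deposited, which match GRCm38). It stood at 67966, 81283 and 61083 CPM in liver libraries 1 to 3 under cisplatin and at 47.3, 84.2 and 63.9 CPM in kidney libraries 4 to 6. Untreated liver had 14439, 26961 and 10112 CPM and untreated kidney 14.5, 1.18 and 32.4 CPM. The organs did not overlap in either arm. The log2 difference was -10.07 ± 0.97 under cisplatin (adjusted p = 8.49e-08) and -10.07 ± 0.97 in untreated mice, and its change was -0.0051 ± 0.95 (adjusted p = 1). The 250 bases before its RefSeq start (build GRCm38.p6, chr5:90460620-90460869, plus strand) are shown because this gene marks the liver side of the comparison, with a match to GTTAAT, a hexamer of sites bound by liver-enriched factors, in capitals.
Alb: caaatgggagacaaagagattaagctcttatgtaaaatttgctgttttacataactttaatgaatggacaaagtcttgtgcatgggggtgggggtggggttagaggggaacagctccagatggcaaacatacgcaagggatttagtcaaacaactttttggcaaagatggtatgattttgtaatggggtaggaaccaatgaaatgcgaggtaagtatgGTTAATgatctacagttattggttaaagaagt
The motif GTTAAT was searched on both strands and occurs in 6.4% of 32851 RefSeq promoter windows of this length.

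Slc34a1, the phosphate transporter of the proximal tubule, had 325, 260.1 and 1485 CPM in kidney and 2.39, 4.58 and 0 CPM in liver under cisplatin. Kidney libraries 4 and 5 were below every untreated kidney library (570.1, 1304 and 1280 CPM) and library 6 above them. The organ difference was 8.22 ± 1.46 (adjusted p = 0.000154) and its change -0.17 ± 1.58 (adjusted p = 1). Umod, made by the thick limb, had 512, 391 and 1008 CPM in kidney and 1.83, 2.82 and 0 CPM in liver, a log2 difference of 8.69 ± 1.42. The water channel gene Aqp2 of the collecting duct had 84.6, 186 and 219 CPM in kidney against 0.273, 0.732 and 0 CPM in liver. For all 3 genes the lowest kidney library was far above the highest liver library.

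Transcription factors and Hox genes kept their organ. Of 18 identity factors, 8 were higher in kidney and 9 in liver under cisplatin, and 15 persisted. Foxa2, a hepatocyte pioneer factor, had 7.45, 12.1 and 19.8 CPM in liver and no count in the 3 kidney libraries, at least 1819-fold higher in liver against a limit of 3 counts over the group. All 11 Hox genes were higher in kidney, and 9 persisted. Hoxc9 had 3.70, 6.46 and 3.46 CPM in kidney and no count in liver. Hnf4a, active in both organs, had 144, 104 and 273 CPM in kidney and 604, 599 and 614 CPM in liver, a difference of -1.80 ± 0.28 (adjusted p = 3.47e-05). Its difference in untreated mice was -0.46 ± 0.27 (adjusted p = 0.203).

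Among genes with at least 100 CPM, the 8 largest differences toward liver were in the major urinary protein family of secreted pheromone carriers, 1 of them the pseudogene Mup-ps19. Mup12 had 4842, 3799 and 6135 CPM in liver and 0.18, 0.348 and 0 CPM in kidney. These genes are near-identical copies, so the share of reads given to each is uncertain. Toward kidney, the 8 largest differences at the same minimum were those of Aqp2, Cldn4, Krt20, Umod, Cdh16, Havcr1, Slc5a2 and Kcnj15. Their log2 differences ran from 8.54 to 8.95. The sodium-glucose transporter gene Slc5a2 and the potassium channel gene Kcnj15 were high in untreated kidney too (73.4, 199 and 172 and 83.1, 144 and 146 CPM). Krt20 and Havcr1 were not, and are described with the injury genes.

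Cdkn1a and Mdm2 of the p53 response did not pass the test between organs under cisplatin. Cdkn1a (ENSMUSG00000023067, chr17:29090976-29100727) had 435, 416 and 53.6 CPM in kidney and 604, 455 and 149 CPM in liver under cisplatin, against 10.7, 6.32 and 9.50 CPM in untreated kidney and 7.33, 4.42 and 8.71 CPM in untreated liver. Every cisplatin library was above every untreated one (log2 change 5.10 in kidney and 5.89 in liver, both called), and the organs overlapped. The organ difference was -0.42 ± 0.51 (95% interval -1.49 to 0.65, adjusted p = 0.584), and it turned to 0.09 without kidney library 6 (adjusted p = 0.935). Mdm2 had 41.8, 38.2 and 14.6 CPM in kidney and 44.3, 23.8 and 47.1 CPM in liver, a difference of -0.28 ± 0.32 (adjusted p = 0.541), which turned to 0.06 without kidney library 6 and to 0.25 without liver library 3 as well. The rises of Mdm2 against untreated missed the threshold in both organs (adjusted p = 0.0544 in kidney and 0.0536 in liver). Of 24 p53 targets, 5 were higher in kidney and 4 in liver (19.5% and 15.4% of all genes), with a median of -0.10.

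Within the list some members were split by organ. Pmaip1, a BH3-only death gene, had 47.9, 35.9 and 5.57 CPM in kidney and 0.546, 0.638 and 0.531 CPM in liver, with no overlap (log2 5.70 ± 0.94, adjusted p = 7.28e-05). Trp53inp1, a stress-induced p53 cofactor, went the other way, with 91.98, 73.8 and 27.6 CPM in kidney and 647, 552 and 211 CPM in liver (log2 -2.87 ± 0.45, adjusted p = 4.34e-05). For both, the change of the difference against untreated missed the threshold (adjusted p = 0.0594 and 0.11). Ddb2, which recognises damaged bases, had a shrunk difference. Liver exceeded kidney in untreated mice (11.7, 5.89 and 11.6 against 2.80, 2.27 and 2.39 CPM), while under cisplatin kidney had 4.78, 2.61 and 3.90 CPM and liver 1.81, 1.45 and 4.12 CPM and the organs overlapped (change 2.58 ± 0.51, adjusted p = 0.00235, lost with the 12 libraries). Of 22 DNA repair genes, 5 were higher in kidney and 4 in liver, shares near those of all genes (19.5% and 15.4%). Brca1, of homologous recombination, had 0.361, 0.222 and 0.268 CPM in kidney and 7.65, 6.49 and 3.50 CPM in liver (log2 -4.37 ± 0.91, adjusted p = 0.000751).

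The metallothionein genes Mt1 and Mt2 encode small cysteine-rich proteins that bind zinc, copper and platinum. Mt1 had 1888, 2584 and 71.5 CPM in kidney and 5721, 4906 and 556 CPM in liver under cisplatin, against 30.8, 19.7 and 26.3 and 29.6, 13.1 and 30.04 CPM in untreated mice. Mt2 had 897, 1099 and 34.05 CPM in kidney and 2836, 2369 and 351 CPM in liver, against 10.8, 5.28 and 8.25 and 25.6, 2.49 and 11.3 CPM. All 6 cisplatin libraries were above all 6 untreated ones for both genes, and kidney library 6 was the lowest of the 6. Organ differences were -1.30 ± 0.76 for Mt1 (adjusted p = 0.201) and -1.45 ± 0.85 for Mt2 (adjusted p = 0.199). Without liver library 3 and kidney library 6 the Mt1 difference was -1.24 (adjusted p = 0.00826) and that of Mt2 -1.37, which missed the threshold. The 250 bases before each RefSeq start (GRCm38.p6, plus strand, Mt1 at chr8:94178839-94179088 and Mt2 at chr8:94172368-94172617) are shown because these neighbouring genes moved together in both organs. Matches to TGCNCNC on either strand are in capitals. This motif is looser than the core of the metal response element, so a match need not be such a site.
Mt1: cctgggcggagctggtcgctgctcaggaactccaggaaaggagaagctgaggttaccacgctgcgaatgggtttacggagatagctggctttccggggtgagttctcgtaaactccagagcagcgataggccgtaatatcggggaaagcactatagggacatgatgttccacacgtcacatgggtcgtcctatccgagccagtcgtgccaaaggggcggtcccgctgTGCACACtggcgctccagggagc
Mt2: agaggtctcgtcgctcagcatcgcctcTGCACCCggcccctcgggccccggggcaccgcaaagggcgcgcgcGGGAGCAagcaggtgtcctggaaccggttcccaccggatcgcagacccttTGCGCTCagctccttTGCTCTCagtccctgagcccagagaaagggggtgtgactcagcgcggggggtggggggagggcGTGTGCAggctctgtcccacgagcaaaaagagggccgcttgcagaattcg
The Mt1 window holds 1 match and the Mt2 window 5. At least 1 match occurs in 44.4% of the promoter windows and at least 5 in 0.34%.

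Injury genes separated by organ. Krt20, a keratin of injured tubule, had 1085, 762 and 3.42 CPM in kidney and 1.91, 2.52 and 0 CPM in liver under cisplatin, and no untreated library exceeded 0.449 CPM. Havcr1, which encodes the tubular injury marker KIM-1, had 204, 128 and 5.96 CPM in kidney and 0.497, 0.358 and 0 CPM in liver. Kidney library 6 was far below libraries 4 and 5 for both, and still above every liver library. Log2 differences were 8.71 ± 1.81 for Krt20 and 8.66 ± 1.38 for Havcr1 (adjusted p = 0.000968 and 7.18e-05). For neither gene was the change of the organ difference against untreated called. Spp1, osteopontin, a secreted matrix protein of injured tubule and of bile duct, had 10370, 9369 and 1016 CPM in kidney and 82.6, 98.9 and 19.6 CPM in liver. Its difference widened from 2.19 ± 0.63 to 6.69 ± 0.76 (change 4.50 ± 0.88, adjusted p = 0.00233, lost with the 12 libraries).

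Lcn2, a secreted iron-siderophore binder used as a kidney injury marker, was higher in liver than in kidney. It had 9384, 6453 and 77.3 CPM in liver and 809, 857 and 30.96 CPM in kidney, with untreated levels of 4.93, 9.40 and 10.6 and 0.896, 2.95 and 2.32 CPM. Liver library 3 lay between kidney library 6 and the other kidney libraries. The difference was -3.23 ± 1.07 (adjusted p = 0.0233). The call was lost without kidney library 6 (-2.66, adjusted p = 0.0564), liver library 1 (-2.53, 0.0883) or liver library 2 (-3.05, 0.0501), and with the 12 libraries alone (adjusted p = 0.106). Of 16 tubular injury genes, 6 were higher in kidney and 5 in liver (19.5% and 15.4% of all genes), with a median of 0.34. The liver members were Lcn2, Krt18, Clu, Cd44 and Cp.

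Acute-phase genes were liver genes in both arms. Of 27, 26 were higher in liver under cisplatin, with a median of -8.48, and 15 persisted. The remaining member, Socs3, which restrains cytokine signalling, missed the threshold (log2 -2.22, adjusted p = 0.0679). Saa1, serum amyloid A, had 36191, 14452 and 248 CPM in liver and 263, 136 and 11.9 CPM in kidney, against 10.6, 27.3 and 48.9 and 0, 0 and 0.464 CPM in untreated mice. The rise against untreated was called in both organs (log2 9.20 in liver and 9.72 in kidney), and the organ difference, -6.95 ± 1.43 under cisplatin, had an uncalled change of 0.53 ± 1.83 (adjusted p = 0.972). Saa1 shares near-identical sequence with Saa2, so the split of their counts is uncertain. Hpx, hemopexin, which binds free haem, had 66018, 43950 and 13859 CPM in liver and 22.3, 37.4 and 25.4 CPM in kidney (log2 -10.51 ± 1.08). The difference of 5 members widened (Orm1, Hp, Lbp, Cp and Il6ra), 4 shrank (Saa4, Fga, Fgg and Crp) and 1 appeared (Steap4). With the 12 libraries alone, 24 members were higher in liver and 2 changes were called.

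**Figure D2:**
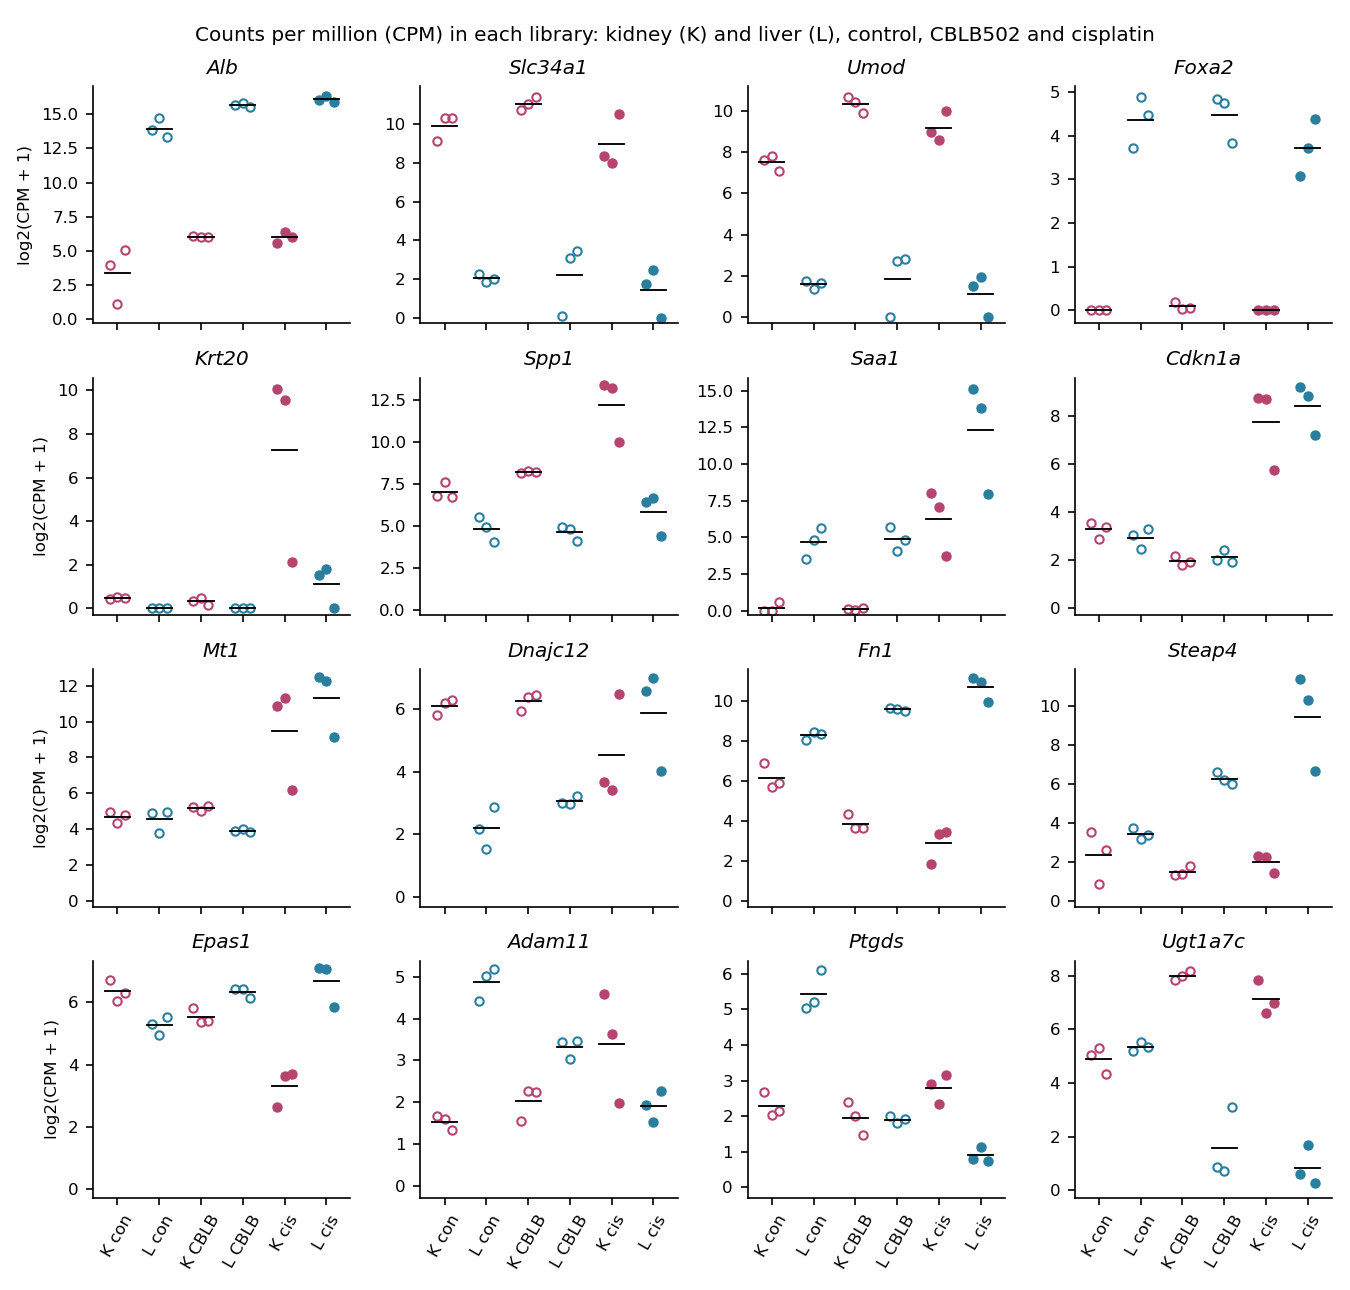
Each point is 1 library's level on a log2(CPM + 1) scale, for kidney (K, pink) and liver (L, blue), with filled points for cisplatin, open points for untreated (con) and CBLB502 libraries, and lines for the mean of 3 log values. Alb, Slc34a1, Umod and Foxa2 kept their organ, Cdkn1a and Mt1 rose in both organs, and Epas1, Adam11 and Ptgds have organs in a different order under cisplatin than in untreated mice.

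All 23 tested complement and coagulation genes were higher in liver under cisplatin, and 18 persisted.

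Among differences that appeared under cisplatin, Steap4, a metalloreductase of the acute-phase response, had 2632, 1269 and 100.4 CPM in liver and 3.83, 3.66 and 1.72 CPM in kidney. Untreated levels were 12.3, 8.04 and 9.43 and 10.4, 0.786 and 5.14 CPM, which overlapped. Liver library 3 was far below the other liver libraries and still above kidney (change -7.88 ± 1.17, adjusted p = 0.000261).

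Toward kidney, Ppm1j, a protein phosphatase gene, had 29.6, 30.2 and 1.66 CPM in kidney and 0.0802, 0.265 and 0 CPM in liver (change 8.26 ± 1.41, adjusted p = 0.000825). Abcb1b, one of the mouse genes for the efflux pump P-glycoprotein, had 19.7, 18.9 and 9.43 CPM in kidney and 0.963, 1.18 and 0.43 CPM in liver. In untreated mice the organs overlapped (3.75, 2.72 and 2.14 and 3.52, 2.83 and 3.34 CPM), and the difference changed by 4.40 ± 0.53 (adjusted p = 5.55e-05). Ugt1a7c, a conjugating enzyme, had 226, 97.3 and 126 CPM in kidney and 0.497, 2.19 and 0.19 CPM in liver, against 32.3, 38.4 and 19.3 and 35.5, 45.6 and 39.8 CPM in untreated mice (change 7.72 ± 1.24, adjusted p = 0.000519). Enzymes of the Ugt1a locus share exons, so its counts are uncertain. After CBLB502 alone Ugt1a7c was already apart, with 228, 252 and 286 CPM in kidney and 0.836, 0.631 and 7.51 CPM in liver.

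Antioxidant genes leaned toward kidney under cisplatin. Of 18 antioxidant and metallothionein genes, 11 were higher in kidney and 1, Sod1, in liver (19.5% and 15.4% of all genes), with a median of 1.25. In untreated mice 5 were higher in kidney and 2 in liver. Called changes of the difference numbered 3 toward kidney and 1 toward liver (7.75% and 6.44% of all genes). Gpx3, the secreted glutathione peroxidase made by the proximal tubule, had 20971, 22608 and 16254 CPM in kidney and 80.8, 125 and 3.32 CPM in liver. Hmox1, haem oxygenase, had 254, 158 and 16.6 CPM in kidney and 43.8, 18.7 and 6.91 CPM in liver (change 3.65 ± 0.93, adjusted p = 0.0121), with kidney library 6 below liver libraries 1 and 2. Gsta1, a glutathione transferase, had 21.2, 34 and 8.77 CPM in kidney and 0.481, 0.311 and 1.02 CPM in liver, without overlap (change 5.92 ± 1.11, adjusted p = 0.00168). Its close copy Gsta2 can share its reads. Gclc, the rate-limiting enzyme of glutathione synthesis, reversed. Liver was higher in untreated mice (108, 231 and 147 against 57.2, 74.3 and 72.5 CPM), and under cisplatin kidney had 973, 473 and 102 CPM and liver 239, 184 and 187 CPM. Its change was 2.59 ± 0.64 (adjusted p = 0.0103), or 1.70 without kidney library 4. With the 12 libraries alone no change in the list was called, those of Hmox1, Gsta1 and Gclc included. There 7 members of the list were higher in kidney and 1 in liver.

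Of 15 transporters of platinum, 5 were higher in kidney and 4 in liver (19.5% and 15.4% of all genes), and 7 persisted. The difference of 1 had a called change, or of 7, all toward kidney, without liver library 3 and kidney library 6. Slc22a2, the organic cation transporter OCT2 of the proximal tubule, had 63.7, 46.5 and 106 CPM in kidney and 0.257, 0.389 and 0.164 CPM in liver (log2 8.06 ± 0.87, adjusted p = 3.87e-07). Slc31a1, the copper transporter CTR1, had 41.6, 34.2 and 62.1 CPM in kidney and 62.8, 67.9 and 137 CPM in liver, higher in each liver library than in any kidney library. Its difference was -0.96 ± 0.27 (adjusted p = 0.00962). The call was lost without kidney library 5 (-0.76, adjusted p = 0.0669) or liver library 3 (-0.50, adjusted p = 0.114), and with the 12 libraries alone. Tlr5, the receptor of CBLB502, was at 0.305, 0.311 and 1.57 CPM in liver and 0.0901, 0.0316 and 0.115 CPM in kidney. Its call (-3.18 ± 1.14, adjusted p = 0.0349) was lost without liver library 3 (-1.93, adjusted p = 0.201), without any 1 kidney library (-3.27, -2.80 and -3.56 without libraries 4, 5 and 6), with the 12 libraries alone and in thinned libraries.

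Among widened differences toward liver were genes of matrix, signalling and bile acid control. Fn1, fibronectin, had 2264, 2020 and 994 CPM in liver and 2.55, 9.16 and 9.89 CPM in kidney, against 266, 351 and 324 and 118, 51.5 and 59.6 CPM in untreated mice. Liver rose by 2.49 and kidney fell by 3.40 on the log2 scale, both called, and the difference went from -2.04 ± 0.43 to -7.93 ± 0.57 (change -5.89 ± 0.64, adjusted p = 1.68e-05). Pik3ap1, a signalling adaptor, had 30.8, 32.01 and 39.2 CPM in liver and 0, 0.111 and 0.255 CPM in kidney, against 8.03, 10.98 and 11.6 and 3.69, 1.57 and 1.22 CPM (change -5.79 ± 0.90, adjusted p = 0.00038). Nr5a2, a nuclear receptor of bile acid control, had 40.1, 39.2 and 40.9 CPM in liver and 0.143, 0.0712 and 0.153 CPM in kidney, and widened by -4.21 ± 0.69 (adjusted p = 0.000586). Rgs16, a regulator of G-protein signalling, had 25, 55.97 and 173 CPM in liver, with its highest value in library 3, and 0.316, 0.15 and 0.338 CPM in kidney (change -5.74 ± 1.13, adjusted p = 0.00237, lost with the 12 libraries).

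Toward kidney, Car15, a membrane-bound carbonic anhydrase of the tubule, had 116, 171 and 73.2 CPM in kidney and 0.529, 0.311 and 0.266 CPM in liver, against 23.3, 30.1 and 25.9 and 0.564, 4.64 and 4.79 CPM in untreated mice (change 5.37 ± 0.66, adjusted p = 6.2e-05).

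Of 21 sterol and fatty acid synthesis genes, 16 were higher in liver and 1 in kidney under cisplatin (median -2.22), against 9 and 1 in untreated mice (median -1.0). The 4 called changes were all toward liver (6.44% of all genes changed that way), among them those of Idi1, Insig1 and Thrsp. Idi1, an enzyme of the mevalonate pathway, had 4.46, 3.61 and 9.90 CPM in kidney and 81.4, 88.2 and 102 CPM in liver, against 21.5, 31.6 and 25.3 and 15.5, 25.5 and 12.2 CPM (change -4.47 ± 0.62, adjusted p = 0.000143). With the 12 libraries alone 12 members were higher in liver and 2 changes were called.

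Shrunk differences came about by different routes. Tfr2 (transferrin receptor 2, an iron sensor), Gls2 (liver glutaminase) and Arg1 (arginase of the urea cycle) had no count in untreated kidney, where liver was at least 5897, 6981 and 9708-fold higher. Under cisplatin Tfr2 had 2.45, 1.36 and 0.562 CPM in kidney and 288, 320.4 and 447 CPM in liver. Gls2 had 0.511, 0.388 and 0.326 CPM in kidney and 138, 212 and 231 CPM in liver. Arg1 had 2.64, 4.25 and 2.35 CPM in kidney and 4100, 4222 and 1906 CPM in liver. All 3 genes were thus read in every cisplatin kidney library, with liver 241, 475 and 1107-fold higher. Changes were called (adjusted p = 0.000328, 0.000133 and 0.00552), also with the 12 libraries alone, and that of Arg1 was lost when all libraries were thinned to the depth of the shallowest untreated one. The summed level of 15 hepatocyte markers in kidney was 178 to 278 CPM in untreated mice, 817 to 1232 CPM under cisplatin and 449 to 734 CPM after CBLB502, and its part in these changes was not tested.

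Apoc3, an apolipoprotein of triglyceride-rich particles, rose in kidney from 1.01, 1.60 and 1.97 CPM to 77.9, 113 and 16.2 CPM, while liver had 1745, 2112 and 2262 CPM against 432, 1067 and 521 CPM untreated. Its difference fell in size from -8.77 ± 0.61 to -4.89 ± 0.51 (change 3.88 ± 0.64, adjusted p = 0.000626). Kidney library 6 was the lowest of the cisplatin kidneys and above every untreated one. Hpd, an enzyme of tyrosine breakdown, had 161, 96.1 and 98.8 CPM in kidney and 191, 539 and 1744 CPM in liver (change 2.93 ± 0.73, adjusted p = 0.0113, lost with the 12 libraries). Toward liver, Dnajc12, a co-chaperone of aromatic amino acid hydroxylases, had 11.9, 9.67 and 88.3 CPM in kidney and 94.5, 127 and 15.2 CPM in liver. Untreated kidney had 55.6, 71.3 and 77.8 CPM and untreated liver 3.52, 1.93 and 6.38 CPM. Kidney libraries 4 and 5 were below the untreated kidney range and library 6 above it, and all liver libraries were above the untreated liver range. The change was -5.24 ± 1.09 (adjusted p = 0.00346, lost with the 12 libraries). Lamc3, a laminin chain, fell in kidney from 31.6, 16.03 and 15.5 CPM to 0.548, 0.855 and 3.14 CPM (change -4.09 ± 0.94, adjusted p = 0.00671, lost with the 12 libraries).

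Of 10 gluconeogenesis and fasting genes, 6 were higher in liver under cisplatin (median -1.11). Changes were called for 6, 2 toward kidney (Pck1 and G6pc) and 4 toward liver (Fbp1, Pcx and Ppargc1a among them). Over all genes these shares were 7.75% and 6.44%. Fbp1, fructose bisphosphatase, had 391, 274 and 522 CPM in kidney and 2086, 1255 and 674 CPM in liver, against 139, 173 and 168 and 116, 102 and 118 CPM (change -2.27 ± 0.42, adjusted p = 0.0014). Ppargc1a, a coactivator of mitochondrial genes, had 4.90, 5.46 and 22.6 CPM in kidney and 32.3, 32.8 and 8.53 CPM in liver (change -3.32 ± 0.77, adjusted p = 0.00735). Igfbp1, an insulin-repressed binding protein of growth factors, had 5295, 4138 and 131 CPM in liver and 5.78, 4.26 and 8.99 CPM in kidney (log2 -8.97 ± 1.24). Pdk4, which restrains pyruvate oxidation, had 525, 390.3 and 40.4 CPM in kidney and 3.61, 5.32 and 6.09 CPM in liver (change 5.07 ± 1.16, adjusted p = 0.00646). With the 12 libraries alone 3 of the 10 genes were higher in liver, and no change in this list was called. The change of Pdk4, a gene of the fatty acid oxidation and ketogenesis list, was not called there either. In the urea cycle and ammonia list 8 of 10 genes were higher in liver. Slc25a15, the mitochondrial ornithine carrier, widened by -1.96 ± 0.36 (adjusted p = 0.00135), with 248, 368 and 231 CPM in liver and 40.01, 37.05 and 55.04 CPM in kidney.

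Most cytochrome P450 and bile acid genes were higher in liver. Of 19 xenobiotic P450 genes and regulators, 17 were higher in liver and 12 persisted. Of 19 bile acid genes, 15 were higher in liver and 2 in kidney, and 13 persisted. The summed P450 level in cisplatin liver was 2446, 3594 and 16061 CPM, so library 3 was far above the others. Called changes toward kidney numbered 2 in the P450 list and 3 in the bile acid list (7.75% of all genes). Those toward liver numbered 2 and 1 (6.44% of all genes). Without liver library 3 and kidney library 6, changes toward kidney numbered 8 and 7, and those toward liver 1 and 1. With the 12 libraries alone no change toward kidney was called in either list, and 1 toward liver was called in the P450 list. Cyp7a1, which starts the classic route of bile acid synthesis, was at 0.754, 0.981 and 118 CPM in liver and 0.135, 0.0475 and 0.0766 CPM in kidney. Liver library 3 was above every untreated liver library (16.1, 16.8 and 1.02 CPM), and libraries 1 and 2 were below all of them. The difference of -8.83 ± 1.82 became -3.30 (adjusted p = 0.0188) without liver library 3 and -3.20 (adjusted p = 0.0509) without kidney library 6 as well.

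Among inflammatory genes, Cx3cl1, a membrane-bound chemokine, persisted toward kidney, with 37.6, 34.02 and 25.3 CPM in kidney and 0.963, 0.809 and 0.278 CPM in liver (log2 5.57 ± 0.55). Cxcl1, a chemokine for neutrophils, stood at 247, 162 and 4.54 CPM in kidney and 194, 261 and 46.5 CPM in liver under cisplatin. Its untreated levels were 0.336, 0.168 and 0.25 CPM in kidney and 1.13, 24.5 and 10.7 CPM in liver, and its difference changed by 5.39 ± 1.66 (adjusted p = 0.0348). That call was kept in 4 of 12 fits with 1 library left out and lost with the 12 libraries alone. Of 21 NF-kB targets, cytokines and chemokines, 4 were higher in kidney, near the 19.5% of all genes, and 1, Tlr5, in liver. Tnf and Ccl5 were among the 4 and stayed at or below 0.849 CPM in every cisplatin library. In the stress response list of 14 genes, 2 were higher in kidney and 7 in liver, against 19.5% and 15.4% of all genes. The serine synthesis gene Psat1 had 218, 238 and 26.3 CPM in kidney and 3.24, 1.60 and 0 CPM in liver (log2 6.65 ± 1.19, adjusted p = 0.000173), whereas Asns, asparagine synthetase, had 9.01, 7.64 and 3.66 CPM in kidney and 47.7, 31.5 and 3.12 CPM in liver (-2.02 ± 0.64, adjusted p = 0.0183). The Asns call was lost without kidney library 6 (-1.71, adjusted p = 0.0770) or liver library 1 (-1.36, adjusted p = 0.128).

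Hormone and clock genes gave further differences. Ren1, renin of the juxtaglomerular cells, had 18.5, 22.7 and 37.3 CPM in kidney and no count in liver, at least 1795-fold higher. Cyp24a1, which breaks down active vitamin D, had 27.6, 37.98 and 26.2 CPM in kidney and 0.0642, 0.156 and 0 CPM in liver, and both differences persisted. Of 16 clock genes, 6 were higher in liver and 1 in kidney, against 15.4% and 19.5% of all genes. Nr1d2, a clock repressor, reversed, from 8.28, 8.25 and 9.86 CPM in kidney and 7.61, 1.70 and 3.48 CPM in liver to 30.2, 25.9 and 31.96 CPM in kidney and 55.7, 55.6 and 58.9 CPM in liver, with tight libraries in both organs under cisplatin (change -2.01 ± 0.41, adjusted p = 0.00291, lost with the 12 libraries). The labels give no hour of day for any group.

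**Figure D3:**
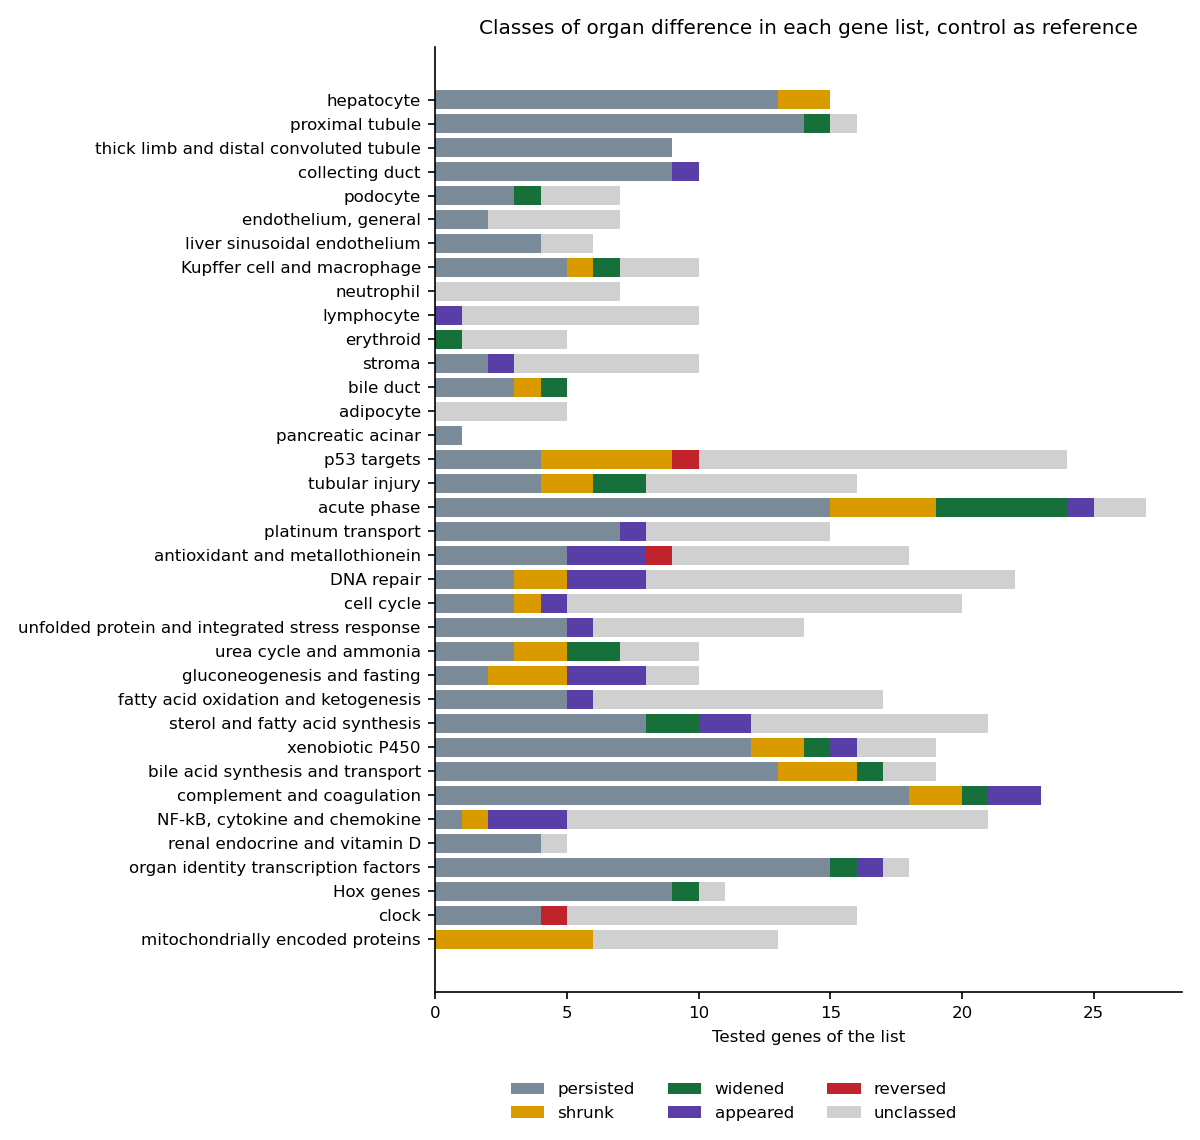
Bars count the tested genes of each of 36 gene lists by class of organ difference, with untreated mice as the reference. Hepatocyte, tubule and collecting duct markers, transcription factors, complement and P450 genes fall mostly in the persisted class, while most p53, cytokine and cell cycle genes were in no class.

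Some differences reversed. Epas1 (ENSMUSG00000024140, chr17:86753700-86833410), the hypoxia-inducible factor HIF-2alpha, was higher in kidney in untreated mice (104, 64.8 and 78.5 against 38.9, 29.8 and 44.99 CPM). Under cisplatin it had 5.14, 11.3 and 12.1 CPM in kidney and 137, 135 and 56.1 CPM in liver, without overlap in either arm. Its difference went from 1.12 ± 0.33 to -3.52 ± 0.35 (change -4.65 ± 0.47, adjusted p = 1.09e-05), with a kidney level lower by 3.12 and a liver level higher by 1.53 on the log2 scale, both called. Adam11, of the metalloprotease-like family, went the other way, from 2.18, 2.02 and 1.54 CPM in kidney and 20.4, 31.8 and 35.7 CPM in liver to 23.4, 11.4 and 2.92 and 2.79, 1.87 and 3.81 CPM (change 6.09 ± 0.74, adjusted p = 5.59e-05). Kidney library 6 overlapped the liver libraries. Ptgds, prostaglandin D synthase, moved chiefly in liver, from 31.6, 35.8 and 67.3 CPM to 0.754, 1.21 and 0.683 CPM, while kidney had 5.43, 3.09 and 3.46 CPM and 6.46, 4.08 and 7.93 CPM (change 6.30 ± 0.61, adjusted p = 5.94e-06).

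Lepr, the leptin receptor, had 8.84, 7.78 and 5.22 CPM in untreated kidney and 0.564, 0 and 0 CPM in untreated liver, and 0.894, 1.54 and 4.14 and 103, 150.5 and 1.18 CPM under cisplatin. Liver library 3 was within the kidney range. The change was -10.62 ± 1.93 (adjusted p = 0.00134), or -17.56 without untreated liver library 1, which leaves untreated liver with no count, so that this value gives no size. Nid1, a basement membrane protein, reversed toward liver (5.88, 5.04 and 4.97 CPM in kidney and 118, 77.8 and 0.506 CPM in liver), with liver library 3 below every kidney library (change -7.75 ± 1.43, adjusted p = 0.00147). Gdf15, a stress cytokine and p53 target, reversed toward kidney (283, 244 and 14.99 CPM in kidney and 70.1, 19.2 and 24.3 CPM in liver, change 5.01 ± 1.25, adjusted p = 0.011). The called changes of Nid1 and Gdf15 were lost with the 12 libraries alone, and that of Gdf15 also without untreated liver library 2 (3.08, adjusted p = 0.0862). The organ difference of Gdf15 under cisplatin was itself near the threshold (2.26, adjusted p = 0.0458), with kidney library 6 below every liver library. That call was kept in 7 of 12 fits with 1 library left out and lost with the 12 libraries alone (adjusted p = 0.168).

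A few called changes rested on single libraries. Untreated liver library 1 alone held most of the untreated liver counts of Gfap (138, 1.81 and 1.45 CPM), Sncg (64.4, 0 and 0 CPM), Sfrp1 (8.46, 0 and 0 CPM) and Npl (2.25, 0 and 0 CPM). Gfap and Sncg are known from glia and neurons, Sfrp1 inhibits Wnt signalling and Npl breaks down sialic acid. Without that library the change was 4.12 for Gfap (adjusted p = 0.0963). Untreated liver then had no count of Sncg, Sfrp1 and Npl, so the refitted change gives no size or direction, and it was not called (adjusted p = 1, 1 and 0.909). None of these 4 changes was called with the 12 libraries alone (adjusted p = 0.0816 for Gfap, 0.149 for Sncg, 0.184 for Sfrp1 and 0.130 for Npl). In the same library 5 adipocyte markers summed to 296 CPM, against 0 in the other untreated liver libraries, and the part of this in those values was not tested. Untreated kidney libraries 1 to 3 had 1276, 2.64 and 321.5 CPM over these markers. Under cisplatin Npl, which had 109, 81.4 and 28.7 CPM in kidney and 0.176, 0.265 and 0 CPM in liver, was apart in every library, and its change against CBLB502, which does not use that library, was 4.90 ± 1.11 (adjusted p = 0.026). The calls of Acot3, a thioesterase with near copies in its family, and Serpina4-ps1, a pseudogene, were also lost when 1 library was left out. For Acot3 these were liver cisplatin library 3 (-3.96 in place of -6.47) and untreated liver libraries 1 and 2 (-5.93 and -5.78). For Serpina4-ps1, with no count in untreated kidney, they were kidney libraries 5 and 6 (adjusted p = 0.0770 and 0.0700 in place of 0.0187).

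Markers of other cells also differed between cisplatin-treated and untreated mice. In these bulk libraries fewer cells of a type and less RNA per cell cannot be told apart. Summed over 7 genes, general endothelial markers were at 6.38 to 100.3 CPM in cisplatin kidney and 6.29 to 20.7 CPM in liver, against 198 to 321 and 52.0 to 90.1 CPM in untreated mice and 95.5 to 193 and 61.1 to 125 CPM after CBLB502. Over 10 stromal markers the sums were 16.9 to 70.8 and 23.5 to 28.3 CPM, against 456 to 610 and 96.7 to 485 CPM in untreated mice and 122 to 165 and 117 to 155 CPM after CBLB502. The 10 lymphocyte markers summed to at most 1.81 CPM in cisplatin kidney and 1.74 CPM in liver, against at least 8.36 and 44.7 CPM in untreated mice. Their sums after CBLB502 were 5.408 to 7.405 CPM in kidney and 7.998 to 13.58 CPM in liver. In both organs these were already below every untreated library and still above every cisplatin library. The 5 erythroid markers summed to at most 3.15 and 13.6 CPM, against at least 129.8 and 206 CPM in untreated mice and 124 and 247 CPM after CBLB502. Kidney library 6 had the highest endothelial, stromal and lymphocyte sums of the 3 cisplatin kidneys. The 10 Kupffer cell and macrophage markers summed to 47.9 to 178 CPM in cisplatin liver, against 206 to 313 CPM untreated and 268 to 500 CPM after CBLB502. Vsig4, Timd4, Cd5l and Marco had no count in cisplatin kidney. The 7 neutrophil markers summed to 4.26, 18.2 and 0.804 CPM in cisplatin kidney and 41.0, 56.8 and 2.38 CPM in liver, with untreated values up to 1.66 and 11.5 CPM. After CBLB502 the values reached 0.780 and 2.43 CPM. In kidney the levels of Epas1, Fn1 and Lamc3, which endothelial and stromal cells also make, were lower along with these sums, while in liver Epas1 and Fn1 were higher and the sums lower. The part of these cells in the kidney values was not tested.

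Against the CBLB502 arm, whose depth and mitochondrial share were nearer to the cisplatin libraries, fewer changes were called. Both comparisons use the same cisplatin libraries. Epas1 changed by -2.71 ± 0.46 and Adam11 by 3.65 ± 0.69 (adjusted p = 0.00528 and 0.00851), calls kept with each of the 12 libraries left out in turn and lost with the 12 libraries alone. After CBLB502 the level of Epas1 was 55.5, 39.98 and 41.1 CPM in kidney and 85.02, 85 and 70.01 CPM in liver, so there liver was already the higher organ. Adam11 had 1.94, 3.84 and 3.77 CPM in kidney and 9.89, 7.17 and 10.03 CPM in liver, with liver higher as in untreated mice. Ptgds changed by 2.67 ± 0.57 and Apoc3 by 2.84 ± 0.62 (adjusted p = 0.0193 and 0.0212).

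Other genes called against both references included Dnajc12, Ppargc1a, Lepr, Ppm1j, Pik3ap1, Gsta1, Rgs16 and Npl. Their changes against CBLB502 were -4.46, -3.68, -6.36, 6.28, -3.64, 4.59, -4.21 and 4.90 (adjusted p = 0.0303, 0.0132, 0.0312, 0.0199, 0.0302, 0.0228, 0.0315 and 0.026). Igfbp1 was called against CBLB502 and not against untreated (-6.31 ± 1.36, adjusted p = 0.0199), where liver had 3.29, 4.09 and 4.74 CPM. Of the 13 genes whose change against CBLB502 is described as called, 2 (Epas1 and Adam11) kept the call with each library left out, and 1 (Gsta1) kept it with the 12 libraries alone. Several large changes against untreated were small against CBLB502. Ugt1a7c changed by 0.87 ± 1.12, Fbp1 by -0.76 ± 0.41 and Abcb1b by 1.23 ± 0.50 (adjusted p = 0.834, 0.402 and 0.234). Fn1 and Nr5a2 changed by -2.13 ± 0.60 and -1.35 ± 0.64 (adjusted p = 0.0663 and 0.322). Of the 40 genes whose called change against untreated is described with its test, 19 kept the call with the 12 libraries alone, 37 without liver library 3 and kidney library 6, and 39 with DESeq2.

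**Figure D4:**
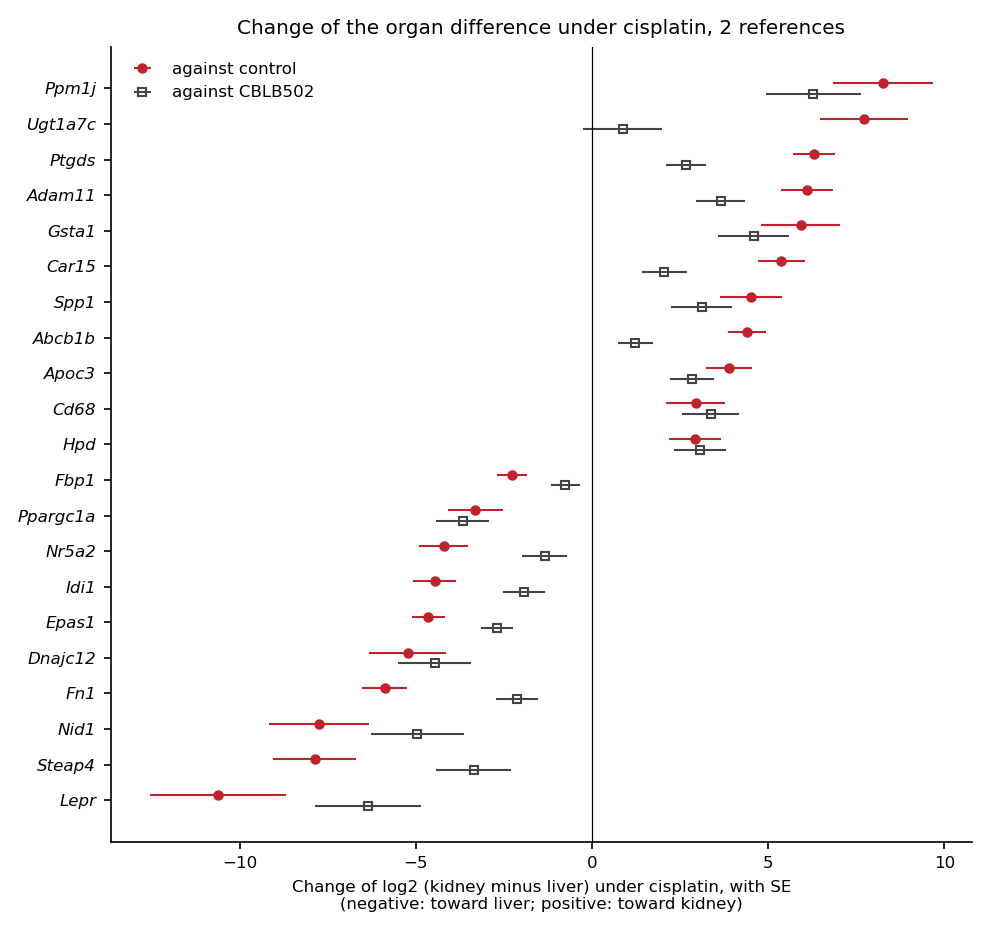
Points give the change of the log2 kidney minus liver difference under cisplatin for 21 genes, against untreated mice (filled circles) and against CBLB502 (open squares), with SE as bars. Every gene shown has the same sign against both references, with Ugt1a7c, Fbp1 and Abcb1b nearer to 0 against CBLB502. The genes were chosen by hand from the named ones. Both changes use the same cisplatin libraries, so the shared sign is not independent evidence.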

How the data were processed

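RNA-seq counts per gene were deposited by the authors in 1 table, per the file headers, for 24 libraries with 40.6 to 77.5 M counts each. The 24 FPKM columns beside them were not used. Cutadapt 1.9 and FastQC are listed in the submitters' processing notes. Aligner, annotation and strand setting are not given in the sources used here, so antisense and overlapping genes cannot be told apart. Of the gene IDs, 99.65% are in GENCODE vM21 (GRCm38). Treated kidney columns 4 to 6 were tied to their group only.

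All 24 libraries (8 groups of 3) were fitted with edgeR 4.0.16 (TMM scaling, filterByExpr, quasi-likelihood test) in R 4.3.3, with p adjusted over 21570 genes (Benjamini-Hochberg) and called under 0.05. Fold bounds used 3 counts over a group. Named genes were the 8 highest and 8 lowest organ differences at 100 CPM or more without overlap, the 3 highest and 3 lowest changes of each class at 20 CPM or more, leading members of 36 gene lists, and a set of stress, transport and organ genes. The 66 symbols shared by several IDs were not named. Members and lists were chosen with earlier results of these data known. Socs3, other list members given without levels, and which named genes are printed were chosen after values were seen. Alternatives were scaling, filters, a minimum fold, fewer libraries, thinning, DESeq2 1.42.0 and leaving out each library. The scripts were tested on simulated data. Some genes of these lists are not reported here.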

Additional observations from a re-analysis of the deposited data

Results flagged for a closer look

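The kidney minus liver difference itself changed between untreated and cisplatin-treated mice at 3062 genes, by edgeR's quasi-likelihood test of that change. The genes described in the report that passed it are listed here because the 2 organs differed in their response under the same comparison. Both the depth and the mitochondrial share of the untreated libraries differ from those of the cisplatin libraries, so the treatment and the kind of library cannot be told apart, and no cause was tested.

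Toward liver, in log2 units, Lepr changed by -10.62, Steap4 by -7.88, Nid1 by -7.75, Acot3 by -6.47, Fn1 by -5.89, Pik3ap1 by -5.79, Rgs16 by -5.74, Dnajc12 by -5.24, Epas1 by -4.65, Idi1 by -4.47, Nr5a2 by -4.21, Lamc3 by -4.09, Ppargc1a by -3.32, Fbp1 by -2.27, Nr1d2 by -2.01 and Slc25a15 by -1.96.

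Toward kidney, in log2 units, Gfap changed by 9.15, Ppm1j by 8.26, Ugt1a7c by 7.72, Ptgds by 6.30, Adam11 by 6.09, Gsta1 by 5.92, Cxcl1 by 5.39, Car15 by 5.37, Pdk4 by 5.07, Gdf15 by 5.01, Npl by 4.98, Spp1 by 4.50, Abcb1b by 4.40, Apoc3 by 3.88, Hmox1 by 3.65, Hpd by 2.93, Gclc by 2.59 and Ddb2 by 2.58. The values of Gfap and Npl lose their call without untreated liver library 1, while the change of Npl against CBLB502 was 4.90 (adjusted p = 0.0260). With 1 library left out in turn, the calls of Cxcl1, Acot3 and Gdf15 were kept in 4, 9 and 11 of 12 fits.

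Where a group had no count the fitted change gives no size. For these genes the adjusted p was 0.000328 for Tfr2, 0.0187 for Serpina4-ps1, 0.00552 for Arg1, 0.000133 for Gls2, 0.0399 for Sfrp1 and 0.0167 for Sncg. The calls of Sfrp1 and Sncg were lost without untreated liver library 1. Those of Serpina4-ps1 and Sfrp1 were kept in 10 and 4 of 12 fits with 1 library left out. Of the 40 genes listed in this section, 19 kept the call with the 12 libraries alone.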

How the results depend on the processing

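Against a minimum log2 difference of 1 (glmTreat), organ differences were called at 4230 genes under cisplatin and 3071 in untreated mice, and changes at 695 against untreated and 58 against CBLB502. The classes then held 1794 persisted, 188 shrunk, 78 widened, 343 appeared and 17 reversed genes. With the 12 libraries of the arms compared, these were 4653, 4310, 358 and 97 calls, with 110 shrunk, 65 widened, 145 appeared and 38 reversed genes. The 6 cisplatin libraries alone gave 4064 calls. DESeq2 gave 1563 changes against CBLB502, 591 widened and 407 reversed genes. Without liver cisplatin library 3 and kidney cisplatin library 6 there were 4763 changes against untreated, 2981 against CBLB502, 646 widened and 593 reversed genes. With no filter on low counts 156 genes reversed. The cause of these shifts was not tested. Fits with fewer libraries also have fewer degrees of freedom.

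With 1 library left out, organ differences ranged from 6492 to 7918 genes under cisplatin and from 5823 to 8072 in untreated mice. Changes ranged from 2260 to 4254 against untreated and from 142 to 1954 against CBLB502, with 1954 without liver cisplatin library 3 and 1540 without kidney cisplatin library 6. Classes ranged from 2763 to 3519 persisted, 910 to 1735 shrunk, 251 to 542 widened, 776 to 1394 appeared and 171 to 461 reversed genes. The difference under cisplatin ranged from -0.802 to 0.0859 for Cdkn1a and from -0.541 to 0.0576 for Mdm2, positive without kidney cisplatin library 6, and that of Mdm2 was 0.25 without liver library 3 and kidney library 6 together. The fitted change ran from -3.97 to 5.78 for Npl and from -2.11 to 9.40 for Sfrp1, and was -2.20 for Sncg at its lowest. The 3 negative values come without untreated liver library 1, where untreated liver has no count of these genes, so they give no size or direction.

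Of the values for single named genes under every alternative, 1783 kept direction and side of the threshold, 193 lost the call, 6 turned sign and 1, Mt1, gained a call. Removing mitochondrial genes moved the median difference of all genes in untreated mice from 0.029 to 0.194, and DESeq2 moved the median change from 0.03 to 0.178. Thinning all libraries to 2.82 M counts left 2159 changes against untreated. Untreated libraries limit the depth of every change against them. No paired analysis was possible because the treated kidney columns carry other numbers than the treated liver columns. In untreated mice, where both organs have numbers 1 to 3, deviations of same-numbered libraries correlated at 0.174, 0.092 and 0.031, so the numbers were not taken as pairs. There the replicate block gave 3716 calls and the same 6 libraries without the block 4834.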
